A study of Mus musculus with 24 samples.

Results

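The integrated stress response genes examined here are 10 genes fixed by name: *Atf4*, *Atf5*, *Ddit3*, *Xbp1*, *Trib3*, *Asns*, *Phgdh*, *Psat1*, *Gdf15* and *Mthfd2*. All 10 were found among the 55416 genes of the count table, and 9 of them were tested among the 16408 genes that passed the filter on low counts. *Gdf15*, with 0 to 11 reads per library, did not pass. It is given as reads and levels and by a fit without that filter. RNA sequencing was done on gastrocnemius muscle of 24 wild-type mice (strain label C56BL6J, bought at 8 weeks of age and all fasted before the muscles were taken). Ambulatory sham mice were compared with mice kept for 8 weeks in the small mouse cage (SMC), a small cage that restricts spontaneous movement, and each of the 4 groups (male sham, male SMC, female sham, female SMC) held 6 mice. The comparison asks which transcripts in muscle follow a sedentary life in each sex. Levels are CPM, counts scaled to a fixed library total, with factors from the trimmed mean of M values (TMM). The 13 fast fibre genes checked against the muscle label summed to between 78962 and 174257 CPM per mouse. Mice are named by group and library number.

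The integrated stress response is a shared answer of cells to amino acid shortage, unfolded protein in the endoplasmic reticulum, haem shortage or mitochondrial damage. Kinases that sense these conditions phosphorylate the initiation factor eIF2alpha, which lowers most protein synthesis while the mRNA of the transcription factor ATF4 is translated more. ATF4 and its partners then raise genes for amino acid synthesis and transport, for serine and one-carbon metabolism and for stress adaptation, and in muscle this programme is known from mitochondrial myopathies, where GDF15 and FGF21 are secreted. Because ATF4 is regulated largely in translation, its mRNA level need not follow its protein. XBP1 belongs to a neighbouring branch of the unfolded protein response, in which IRE1 splices its mRNA, and gene counts do not separate the spliced from the unspliced form.

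ATF4 binds composite elements that join a C/EBP and an ATF half-site, so the promoter windows of the members were searched for the core TGATGNAA on both strands. RefSeq windows (build GRCm38.p6, 250 bases before to 50 after each start) were matched for all 10 members, in 13 windows. The core was found in 2 members, *Asns* and *Trib3*, and it occurs in 3.97% of all 32851 windows. It is in capitals below, on the plus strand of the *Asns* window beginning 23 bases before the start, and on the reverse strand of the *Trib3* window beginning 14 bases after it. *Xbp1* is shown for the sex difference described further on. Neither the unfolded protein response element core TGACGTGG (0.676% of windows) nor the ER stress element, CCAAT and CCACG with 9 bases between (0.119% of windows), was found in any member window on either strand. A match or its lack says only which letters stand in these windows.
Asns promoter, chr6:7693160-7693459, minus strand: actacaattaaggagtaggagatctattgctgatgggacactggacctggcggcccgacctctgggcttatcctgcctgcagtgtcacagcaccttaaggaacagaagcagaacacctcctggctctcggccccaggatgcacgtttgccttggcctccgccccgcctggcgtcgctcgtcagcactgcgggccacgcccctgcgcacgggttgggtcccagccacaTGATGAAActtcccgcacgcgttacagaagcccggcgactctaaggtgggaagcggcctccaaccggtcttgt
Trib3 promoter, chr2:152344011-152344310, minus strand: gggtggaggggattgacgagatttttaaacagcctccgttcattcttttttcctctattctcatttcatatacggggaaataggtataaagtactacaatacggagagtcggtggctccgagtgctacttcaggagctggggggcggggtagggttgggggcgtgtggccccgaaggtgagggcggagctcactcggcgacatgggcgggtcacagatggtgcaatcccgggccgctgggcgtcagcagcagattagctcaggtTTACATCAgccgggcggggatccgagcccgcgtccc
Xbp1 promoter, chr11:5520391-5520690, plus strand: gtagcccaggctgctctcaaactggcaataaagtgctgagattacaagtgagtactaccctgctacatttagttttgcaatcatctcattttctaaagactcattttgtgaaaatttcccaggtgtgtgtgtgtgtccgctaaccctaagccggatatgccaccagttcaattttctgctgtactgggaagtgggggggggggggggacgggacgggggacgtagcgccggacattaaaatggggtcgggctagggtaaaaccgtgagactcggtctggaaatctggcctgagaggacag

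Per kilobase of annotated exon, the transcription factors were by far the most abundant members. Mean levels over the 24 mice were 35.1 CPM per kilobase for *Atf4*, 20.7 for *Atf5*, 14.5 for *Xbp1* and 3.24 for *Ddit3* (CHOP, a factor linked to cell death under prolonged stress). *Atf4* lay above *Atf5* and *Xbp1* above *Ddit3* in 24 of 24 mice, and *Atf5* above *Xbp1* in 21. The enzymes were lower, at 0.694 CPM per kilobase for *Phgdh*, 0.611 for *Mthfd2*, 0.337 for *Asns* and 0.335 for *Psat1*, and the pseudokinase *Trib3* stood among them at 0.474. Neighbours among these 5 overlapped and changed order between mice. *Phgdh* was above *Mthfd2* in 12 of 24 mice, *Mthfd2* above *Trib3* in 16, *Trib3* above *Asns* in 19 and *Asns* above *Psat1* in 17. *Gdf15*, the secreted stress cytokine, was lowest at 0.0574 CPM per kilobase. Low members had few reads, 11 to 111 per library for *Trib3*, *Asns*, *Phgdh*, *Psat1* and *Mthfd2*, so their estimates are the least precise. *Ddit3* has 2 entries in the count table, and the one with reads was used. The other had 0 counts and shares 105 exon bases with it on the same strand. On the opposite strand *Ddit3* shares exon bases with the methionyl-tRNA synthetase gene, and *Atf5* with *Il4i1* and *Nup62*. Whether the counting used strand is not given in the sources used here, so reads from those overlaps cannot be assigned with certainty.

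**Figure D1:**
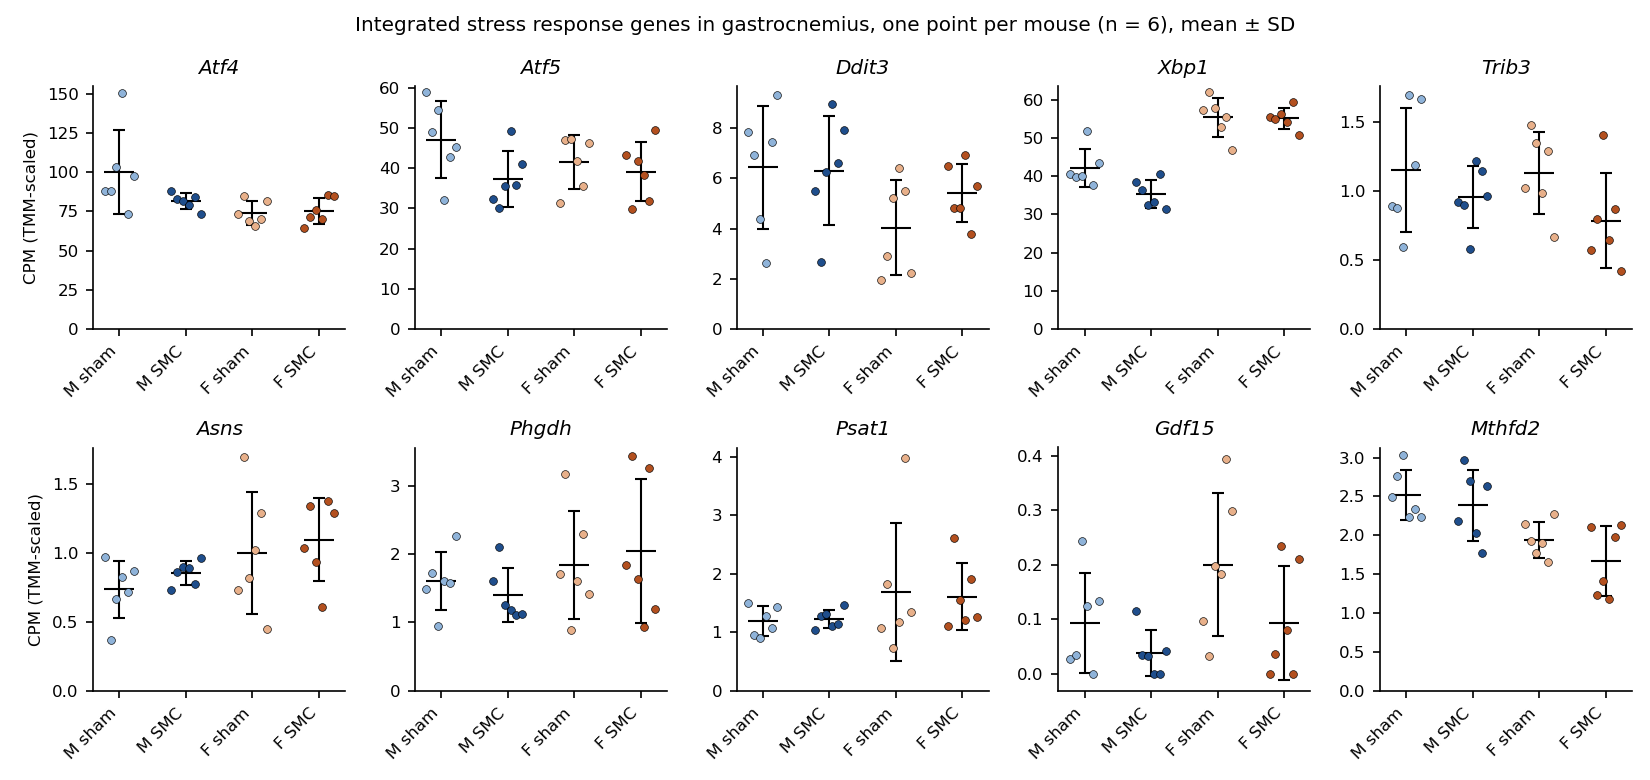
TMM-scaled CPM of the 10 members (y axes) in the 4 groups (x axes, M male, F female), with a point for each mouse and the mean ± SD of 6 mice. *Xbp1* is higher in both female groups, *Atf4* has a male sham mouse at 150.5 CPM, and most other groups overlap.

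Library totals lay between 23026627 and 36880413 counts. Male sham mouse 4 and female sham mouse 7 stood apart, with slow fibre scores (mean log2 CPM of 10 slow fibre genes) of 1.96 and 1.67, against 5.42 or more in the other 22 mice. Their summed slow fibre levels were 91.4 and 76.4 CPM, against 715 or more in every SMC mouse. Mouse 4 also had the highest male sham value of *Atf4*, *Xbp1* and *Trib3* and the lowest of *Atf5* and *Ddit3*, and mouse 7 had the lowest female sham values of *Atf5* and *Ddit3*. The part of fibre content in these values was not tested, and several results below are also given without these mice. In whole muscle, fewer cells of a type and less RNA per cell cannot be told apart.

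No member was called between SMC and sham in males by edgeR's quasi-likelihood test at a false discovery rate (FDR) under 0.05 over all genes, where 0% of all genes were called. Of the 9 tested members, 7 had a log2 fold change below 0, as did 50.9% of all genes. The median over the members was -0.19 and that of all genes -0.0044. At an unadjusted p under 0.05, 3 members were lower in SMC males (5.59% of all genes) and none was higher (5.41%). These were the transcription factors *Xbp1*, *Atf4* and *Atf5*. DESeq2 and limma voom also called 0 members in this comparison, although both called some of all genes. Their counts over all genes, for this and several other comparisons, are given in the closing section.

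*Xbp1*, which drives genes for secretory protein folding and degradation, ran from 37.8 to 51.7 CPM in male sham mice with a median of 40.3. In male SMC mice it ran from 31.5 to 40.6 CPM with a median of 34.8. Of the 6 male SMC mice 4 lay below every male sham mouse, and the groups overlapped. The log2 fold change was -0.25 (SE 0.0799, edgeR FDR = 0.235). *Xbp1* ranked 292 of all genes by p in males, and without male sham mouse 4 its log2 fold change was -0.20 (FDR = 0.341). In females it was -0.0083 with a 95% interval from -0.16 to 0.15 on the log2 scale, and the female SMC mice lay inside the female sham range. The difference of the responses between the sexes was 0.24 (SE 0.113, edgeR FDR = 0.948), so a sex difference in the *Xbp1* response did not pass the test.

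*Atf4*, the central transcription factor, ran from 73.0 to 150.5 CPM (median 92.5) in male sham mice and from 73.6 to 88.1 CPM (median 82.3) in male SMC mice. The spread in the male sham group came largely from mouse 4 at 150.5 CPM, and no male SMC mouse lay below the sham range. The log2 fold change was -0.29 (SE 0.12, edgeR FDR = 0.353) with all mice and -0.15 (FDR = 0.550) without male sham mouse 4, so that mouse carried much of the difference. Female values were alike in both groups, 65.8 to 84.8 CPM (median 71.6) in sham and 64.3 to 85.7 CPM (median 73.7) in SMC. The female log2 fold change was 0.023 with a 95% interval from -0.21 to 0.26.

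*Atf5*, a related factor linked to the mitochondrial stress response, ran from 32.0 to 59.0 CPM (median 47.1) in male sham mice and from 30.0 to 49.4 CPM (median 35.7) in male SMC mice. The ranges overlapped, and 1 of 6 male SMC mice lay above the male sham median. The log2 fold change was -0.34 (SE 0.146, edgeR FDR = 0.389) in males and -0.089 (SE 0.146, FDR = 0.860) in females. In the mean of both sexes it was -0.21 (FDR = 0.287 by edgeR). *Ddit3* was 6.43 ± 2.45 CPM in male sham and 6.31 ± 2.17 CPM in male SMC mice, and in females 4.04 ± 1.90 CPM under sham and 5.42 ± 1.164 CPM under SMC housing (SD, n = 6 each). Its log2 fold changes of -0.034 in males and 0.42 in females had 95% intervals from -0.62 to 0.55 and from -0.18 to 1.02, so changes of that size were not detectable here. Leaving out male sham mouse 4 gave *Ddit3* -0.20 in males (edgeR FDR = 0.839).

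In females, too, 0 of 9 members were called by edgeR, DESeq2 or limma voom, while edgeR called 0.341% of all genes, and none had an unadjusted p under 0.05 (12.5% of all genes). The member with the smallest p was *Trib3*, a pseudokinase induced by ATF4 and CHOP that restrains AKT and ATF4. It ran from 0.670 to 1.48 CPM (median 1.158) in female sham mice and from 0.421 to 1.41 CPM (median 0.722) in female SMC mice. Of the 6 female SMC mice 3 lay below every sham mouse, and 1 reached into the upper sham range. *Trib3* gave -0.55 (SE 0.282, edgeR FDR = 0.436) in females and -0.27 (SE 0.277, FDR = 0.786) in males. Averaged over the sexes it gave -0.41 (SE 0.198, edgeR FDR = 0.282). Leaving out mice 4 and 7 gave *Trib3* -0.14 in males (edgeR FDR = 0.881).

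The amino acid and one-carbon enzymes gave no called change in either sex. *Asns* (asparagine synthetase) was 0.736 ± 0.210 and 0.854 ± 0.0865 CPM in male sham and male SMC mice, with a log2 fold change of 0.21 (95% interval -0.31 to 0.73). *Phgdh*, the first enzyme of serine synthesis, gave -0.19 in males and 0.16 in females, and *Psat1*, the next enzyme, 0.037 and -0.068. *Mthfd2*, the mitochondrial folate enzyme, gave -0.078 (95% interval -0.39 to 0.24) in males and -0.21 (95% interval -0.53 to 0.12) in females. In males the 95% intervals of *Phgdh* and *Psat1* ran from -0.80 to 0.42 and from -0.56 to 0.64, so changes of that size were not detectable with 6 mice a group. *Gdf15* had 16 reads in all over the 6 male sham, 6 over the male SMC, 33 over the female sham and 15 over the female SMC libraries. Fitted without a filter on low counts it gave log2 fold changes of -1.23 (SE 0.891, FDR = 0.712) in males and -1.08 (SE 0.756, FDR = 0.621) in females by edgeR, so no difference was detectable at this depth.

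Averaged over both sexes, 0 members were called by edgeR (2.36% of all genes were), by DESeq2 or by limma voom, and 2 members, *Xbp1* (-0.13) and *Trib3* (-0.41), had an unadjusted p under 0.05 in the lower direction (9.65% of all genes). Scaling by library totals alone moved the median of all genes by -0.13 in this comparison, and *Xbp1* was then called at -0.27 (FDR = 0.0278). The test of unequal responses in males and females called 0 members and 0% of all genes by edgeR. *Xbp1* was the 1 member with an unadjusted p under 0.05 there (5.13% of all genes), and DESeq2 and limma voom called 0 members.

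**Figure D2:**
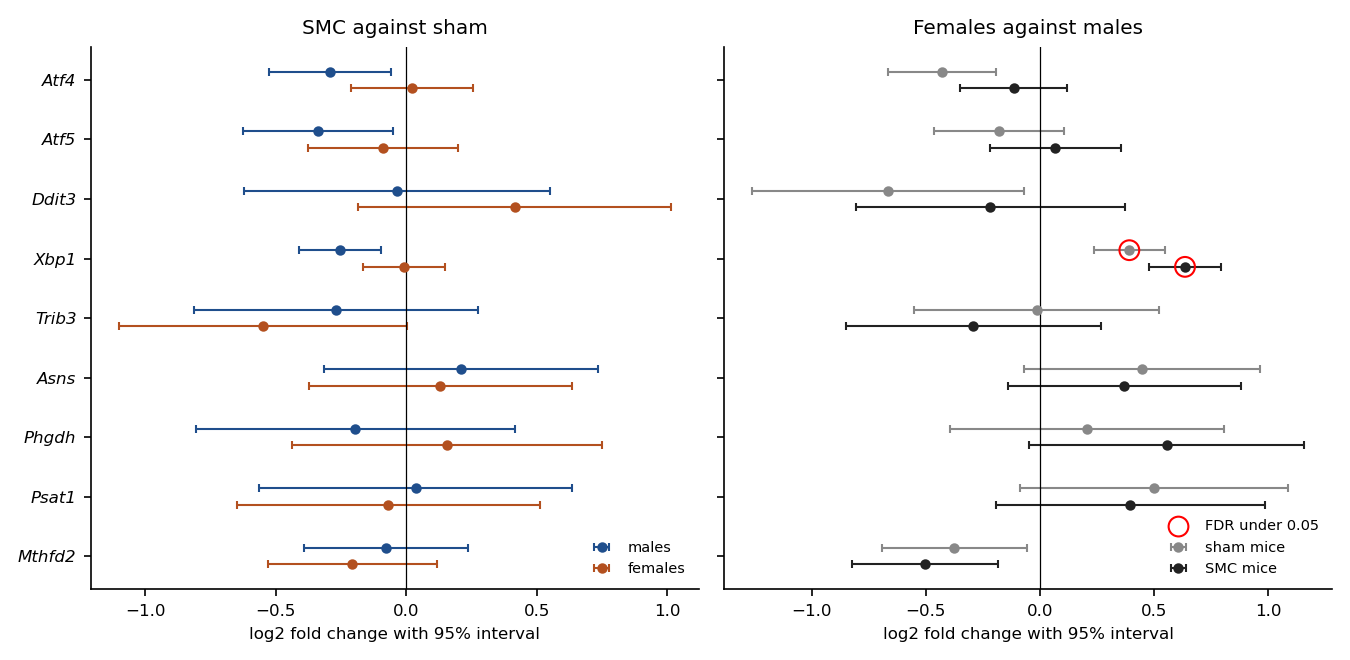
Log2 fold changes (x axes) of the 9 tested members with 95% intervals, for SMC against sham by sex (left) and for females against males by housing (right), and red rings mark FDR under 0.05. Rings are present on *Xbp1* alone, at 0.39 in sham and 0.64 in SMC mice.

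Between the sexes, *Xbp1* was the member that passed the test. Female sham mice ran from 46.9 to 62.1 CPM with a median of 56.4, and 5 of 6 lay above every male sham mouse. Its log2 fold change was 0.39 (SE 0.0797, edgeR FDR = 0.00976), and *Xbp1* was the 1 of 9 members called, where 1.97% of all genes were. In the SMC mice, which are other animals, females ran from 50.7 to 59.3 CPM with a median of 55.1. All 6 lay above all 6 male SMC mice, a separation in 1 direction or the other that 2.08% of all genes showed. The difference was 0.64 (SE 0.0800, edgeR FDR = 2.23e-05), 55.4% higher, and *Xbp1* was again the 1 member called (1.03% of all genes). The sham difference held without any 1 library (0.36 to 0.45, FDR up to 0.0272) and without mice 4 and 7 together (0.44, FDR = 0.00234), but with scaling by library totals alone its FDR was 0.0797 at the same 0.39. The SMC difference was called under every alternative, with log2 fold changes from 0.61 to 0.69.

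Beside this difference, adipocyte markers were higher in SMC females than in SMC males for 7 of 7 genes, 6 of them at an unadjusted p under 0.05 and 0 at an FDR under 0.05. Their summed level ran from 86.2 to 298 CPM in female SMC and from 79.1 to 102 CPM in male SMC mice. Slow fibre markers were also higher in SMC females for 10 of 10 genes, Schwann cell markers for 6 of 6 and tendon markers for 5 of 6. None of these genes had an unadjusted p under 0.05. Within groups *Xbp1* went with the adipocyte score at r = 0.43 (Spearman's rho 0.44, 24 mice, adjusted permutation p = 0.247 for r and 0.207 for rho, over 90 relations of members with marker scores). *Xbp1* fell with the slow fibre score (rho -0.62, adjusted permutation p = 0.0301, against 0.118 for r = -0.58). The part of adipose tissue, fibre content or these other cells in the sex difference was not tested. In sham mice, Schwann cell markers were higher in females for 6 of 6 genes (4 at an unadjusted p under 0.05), tendon markers for 5 of 6 (2) and adipocyte markers for 5 of 7 (1), and none passed the FDR. Summed levels in female against male sham mice ran from 65.2 to 180 CPM against 47.3 to 97.4 CPM for Schwann cell, from 199.03 to 758 against 165 to 300.2 CPM for tendon and from 72.1 to 166 against 69.0 to 171 CPM for adipocyte markers. Their part in the sham difference of *Xbp1* was not tested.

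*Atf4* went the other way in sham mice. None of the 6 female sham mice lay above the male sham median, 3 lay below every male sham mouse, and the log2 fold change was -0.43 (SE 0.120, FDR = 0.0610 by edgeR and 0.0237 by DESeq2). Leaving out male sham mouse 4 gave -0.29 (FDR = 0.0801), and leaving out male sham mouse 5, the lowest of its group, -0.51 (FDR = 0.0163). In SMC mice the *Atf4* difference was -0.12 (SE 0.120, FDR = 0.828). The male sham group stands in both the male response and this comparison, so both carry mouse 4.

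*Mthfd2* was lower in females under both housings without passing the test. It ran from 2.23 to 3.04 CPM (median 2.42) in male sham and from 1.65 to 2.27 CPM (median 1.91) in female sham mice. Of the female sham mice 5 lay below every male sham mouse. Its log2 difference was -0.38 (SE 0.162, edgeR FDR = 0.255) in sham and -0.50 (SE 0.164, edgeR FDR = 0.174, limma voom FDR = 0.0403) in SMC mice. *Ddit3* gave -0.67 (SE 0.304, FDR = 0.287) in sham and -0.22 (SE 0.302, FDR = 0.888) in SMC mice. *Asns*, *Phgdh* and *Psat1* had log2 fold changes between 0.21 and 0.56 in both sex comparisons, with FDRs of 0.429 or more, and *Psat1* had a female sham mouse, number 11, at 3.98 CPM against 1.83 CPM in the next.

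Correlations between members within groups used log2 CPM with the group means removed, over 24 mice. Of 36 pairs of members, 4 had a Pearson correlation with an adjusted permutation p under 0.05, 2 of them positive and 2 negative, and 6 passed by Spearman's rho, these 4 included. The smallest of the 4 was 0.60 in size, a size that 3.41% of all pairs of tested genes reached, and the smallest of the 6 was 0.56, which 3.16% reached. *Phgdh* and *Psat1*, which catalyse consecutive steps of serine synthesis, varied together (r = 0.64, Spearman's rho 0.58, adjusted permutation p = 0.0429 and 0.0496). Leaving out the 2 mice farthest from the median of *Phgdh* gave r = 0.58. *Xbp1* and *Trib3* also varied together (r = 0.61, rho 0.59, adjusted permutation p = 0.0355 and 0.0310), with r = 0.48 without the 2 mice farthest on *Xbp1*.

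*Atf4* and *Ddit3* varied in opposite directions, although *Ddit3* is a known ATF4 target (r = -0.66, rho -0.68, adjusted permutation p = 0.0295 and 0.0191). Without the 2 mice farthest on *Atf4* the value was -0.59. With the slow fibre score *Ddit3* had r = 0.70 and *Atf4* r = -0.52. The *Atf4* relation did not pass (rho -0.38, adjusted permutation p = 0.247 for r and 0.266 for rho, r = -0.35 without mice 4 and 7). The part of fibre content in the *Atf4* and *Ddit3* relation was not tested. *Trib3* and *Mthfd2* were opposed as well (r = -0.60, rho -0.63, adjusted permutation p = 0.0385 and 0.0202), with r = -0.56 without the 2 mice farthest on *Trib3*. By rank alone, *Asns* and *Psat1* varied together (rho 0.73, adjusted permutation p = 0.0202, against 0.143 for r = 0.55) and *Atf5* and *Phgdh* were opposed (rho -0.56, adjusted permutation p = 0.0496, against 0.111 for r = -0.49). When male sham mouse 4 and female sham mouse 7 were left out, 0 pairs passed by Pearson's r, and the 4 pairs that had passed gave r of 0.65, 0.55, -0.58 and -0.59 in the order given, each with an adjusted permutation p of 0.0561. By Spearman's rho 5 of the 6 pairs still passed without those mice, each at 0.0436, and *Phgdh* with *Psat1* did not.

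**Figure D3:**
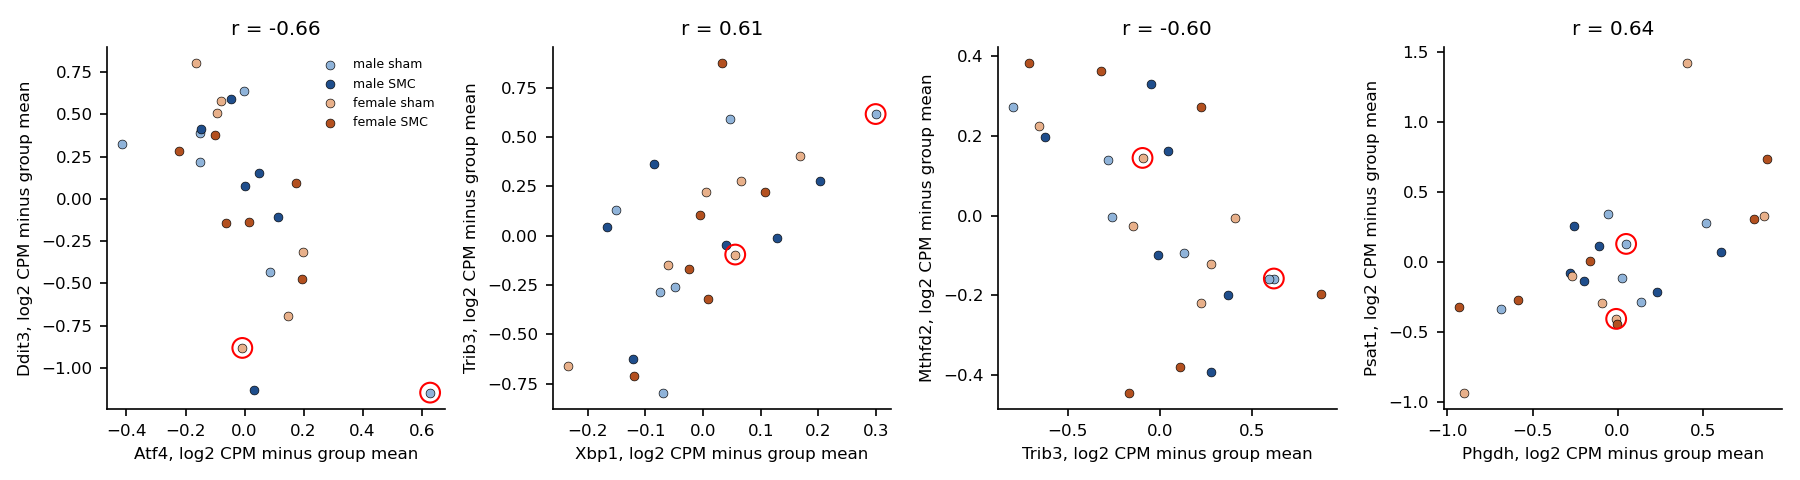
Log2 CPM minus the group mean of the 4 member pairs that passed (axes name the genes), with a point for each of 24 mice coloured by group and red rings on male sham mouse 4 and female sham mouse 7. *Atf4* against *Ddit3* and *Trib3* against *Mthfd2* slope down (r = -0.66 and -0.60), and the other pairs slope up (r = 0.61 and 0.64).

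Of 90 relations of members with cell and fibre marker scores, 4 had an adjusted permutation p under 0.05 by Pearson's r. The share of all genes with relations of this size was not computed, so they cannot be called particular to the members. *Atf5* rose with the slow fibre score (r = 0.75, rho 0.71, adjusted permutation p = 0.0009 and 0.0036 over 90 relations, r = 0.68 without mice 4 and 7) and with the endothelial score (r = 0.69, rho 0.69, adjusted permutation p = 0.0078 and 0.0141, r = 0.58 without the same mice). *Ddit3* rose with the slow fibre score too (r = 0.70, rho 0.60, adjusted permutation p = 0.0081 and 0.0513, r = 0.55 without them). *Phgdh* rose with the adipocyte score (r = 0.72, rho 0.74, adjusted permutation p = 0.0078 and 0.0141), and without the mice farthest on that score r was 0.63. By rank alone, *Phgdh* fell with the endothelial score (rho -0.70, adjusted permutation p = 0.0198, against 0.175 for r = -0.52) and with the slow fibre score (rho -0.55, 0.0460, against 0.476 for r = -0.30), as *Xbp1* did with the slow fibre score (rho -0.62, 0.0301, against 0.118 for r = -0.58). Summed slow fibre levels ran from 91.4 to 2491 CPM in male sham, 715 to 3257 CPM in male SMC, 76.4 to 3215 CPM in female sham mice and 1537 to 4594 CPM after SMC in females. All 10 slow fibre markers and all 7 adipocyte markers were detected. The part of fibre or fat content in the levels of these members was not tested.

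**Figure D4:**
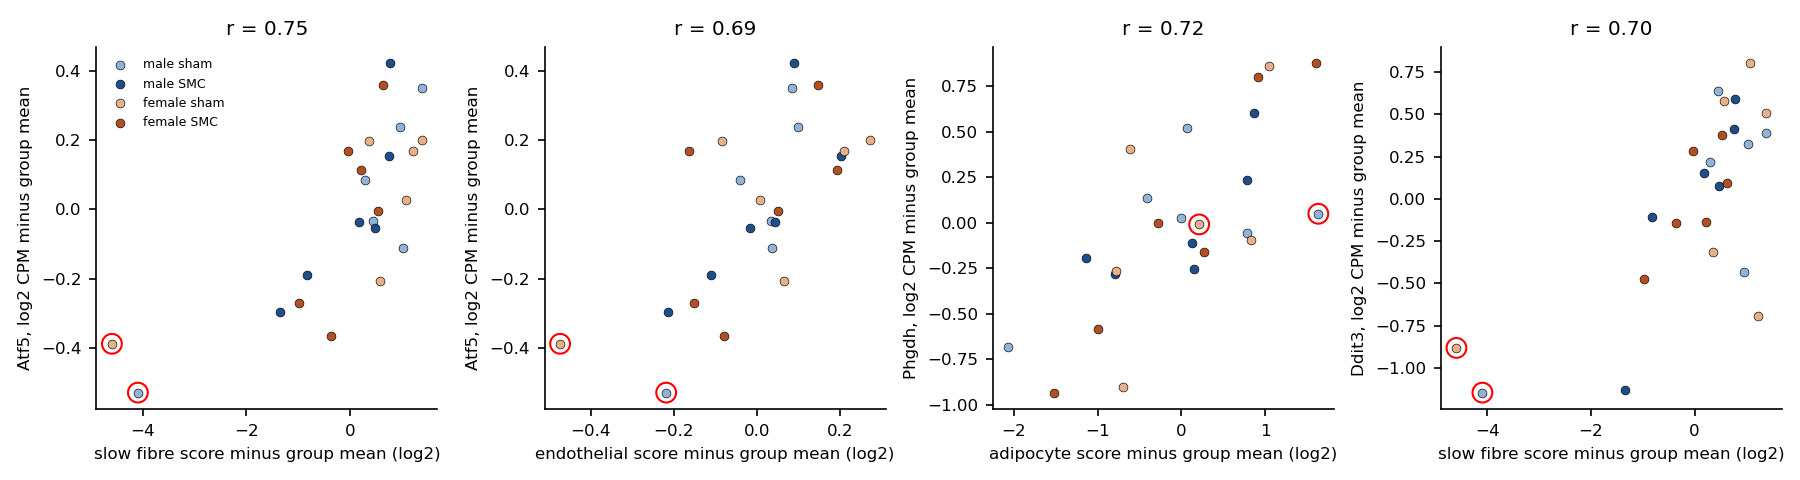
Log2 CPM of *Atf5*, *Phgdh* and *Ddit3* (y axes) against marker scores (x axes, mean log2 CPM of the marker genes), both minus the group mean, for 24 mice coloured by group, with red rings on male sham mouse 4 and female sham mouse 7. Correlations are between 0.69 and 0.75, and the ringed mice lie far to the left in the slow fibre panels.

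Genes whose pattern over the 24 mice was most like that of each member were found by Pearson's r of the same centred values, as a description. For *Atf4* the nearest of all tested genes was *Ppp1r15a* (GADD34, the regulatory subunit that directs a phosphatase to eIF2alpha), with r = 0.91, followed by *D230025D16Rik* at 0.90. *Ddit3* was nearest to *Slc25a13*, the mitochondrial aspartate-glutamate carrier (0.91), and to *Amigo3* (0.90). *Xbp1* was nearest to *Pcgf1* (0.80) and *Lrmda* (0.79), *Atf5* to *Mrpl14* and *Dok5* (both 0.85), and *Trib3* to *Selp* (0.83) and *Atp10d* (0.80). The enzymes were nearest to *Ces1f* and *Hp* for *Phgdh* (both 0.82), *Hacd2* (0.88) and *Adgrl3* (0.87) for *Psat1*, *Gm13680* (0.77) and *Zfp13* (0.76) for *Asns*, and *Gm4366* (0.74) and *Mettl11b* (0.71) for *Mthfd2*.

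Beyond the members, a list of 35 other ATF4 targets held 33 tested genes. In males 25 of 33 and in females 25 of 33 had log2 fold changes below 0 (50.9% and 52.4% of all genes), with a median of -0.12 in each sex against -0.0044 and -0.011 over all genes, and none passed the FDR in either sex alone. Without male sham mouse 4, whose mean log2 CPM over the list was 4.68 against 4.11 to 4.38 in the other 5 male sham mice, 22 of 33 were below 0 in males with a median of -0.068, and *Ddit4* passed in females (-2.90, edgeR FDR = 0.0345). Without female sham mouse 7 the female count was 21 of 33, with a median of -0.089. The female sham group was split: the mean log2 CPM over the list was 4.49, 4.51 and 4.56 in mice 7, 8 and 12. In female sham mice 9, 10 and 11 it was 4.18, 4.09 and 4.18, against 4.12 to 4.23 in the female SMC mice. Beside this list, tendon markers (5 of 6 lower, 4 at an unadjusted p under 0.05) and fibroblast markers (5 of 6 lower, 3 at an unadjusted p under 0.05) tended lower in SMC females and Schwann cell markers higher in SMC males (6 of 6, 2 at an unadjusted p under 0.05), with 0 past the FDR. The summed tendon level ran from 199.03 to 758 CPM in female sham and from 127 to 388 CPM in female SMC mice, and that of the fibroblast markers from 521 to 1782 CPM and from 608 to 948 CPM. Schwann cell markers summed to between 47.3 and 97.4 CPM in male sham and between 81.6 and 132 CPM in male SMC mice. Macrophage markers were lower in SMC males for 8 of 8 genes, red blood cell markers for 5 of 5 and adipocyte markers for 6 of 7. In SMC females slow fibre markers were higher for 10 of 10 genes, fast fibre for 12 of 13, adipocyte for 7 of 7 and red blood cell for 5 of 5. None of the genes in these 7 counts had an unadjusted p under 0.05. The part of these cells and fibres in the values of the list or of the members was not tested. In the mean of both sexes 2 fell at an FDR under 0.05, where 1.33% of all genes fell, and 0 rose. *Cebpb*, a transcription factor that pairs with ATF4, fell by 0.80 on the log2 scale (SE 0.162, edgeR FDR = 0.0119). Its levels were 78.7 ± 28.4 CPM in male sham, 46.3 ± 6.39 in male SMC, 97.7 ± 41.0 in female sham and 55.0 ± 9.03 in female SMC mice (SD, n = 6 each). Male sham mouse 4 stood at 128.5 CPM, the other male sham mice at 44.9 to 87.6 CPM and male SMC mice at 37.7 to 56.6 CPM. Female sham mice 7, 8 and 12 stood at 147.7, 145.0 and 103.9 CPM. Female sham mice 9, 10 and 11 stood at 67.4, 56.6 and 65.5 CPM, against 43.7 to 65.4 CPM in female SMC mice. The *Cebpb* call held under each alternative tried, with -0.63 (edgeR FDR = 0.0206) without mice 4 and 7. *Ddit4* (REDD1, an inhibitor of mTORC1) fell by 2.39 on the log2 scale (SE 0.546, edgeR FDR = 0.0217). Its values in female sham mice 7 to 12 were 360.3, 206.9, 25.3, 9.77, 14.5 and 122.6 CPM, and in male sham mice 1 to 6 they were 9.17, 24.8, 26.9, 164.9, 14.8 and 9.30 CPM. Thus 4 sham mice (male 4, female 7, 8 and 12) stood at 122.6 CPM or more, the other 8 at 26.9 CPM or less, and no SMC mouse exceeded 26.3 CPM. Without male sham mouse 4 the change was -1.75 (FDR = 0.0453), without female sham mouse 7 -2.04 (FDR = 0.0345) and without both -1.40 (FDR = 0.0612), and limma voom, which weights libraries, gave -0.91 (FDR = 0.245).

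**Figure D5:**
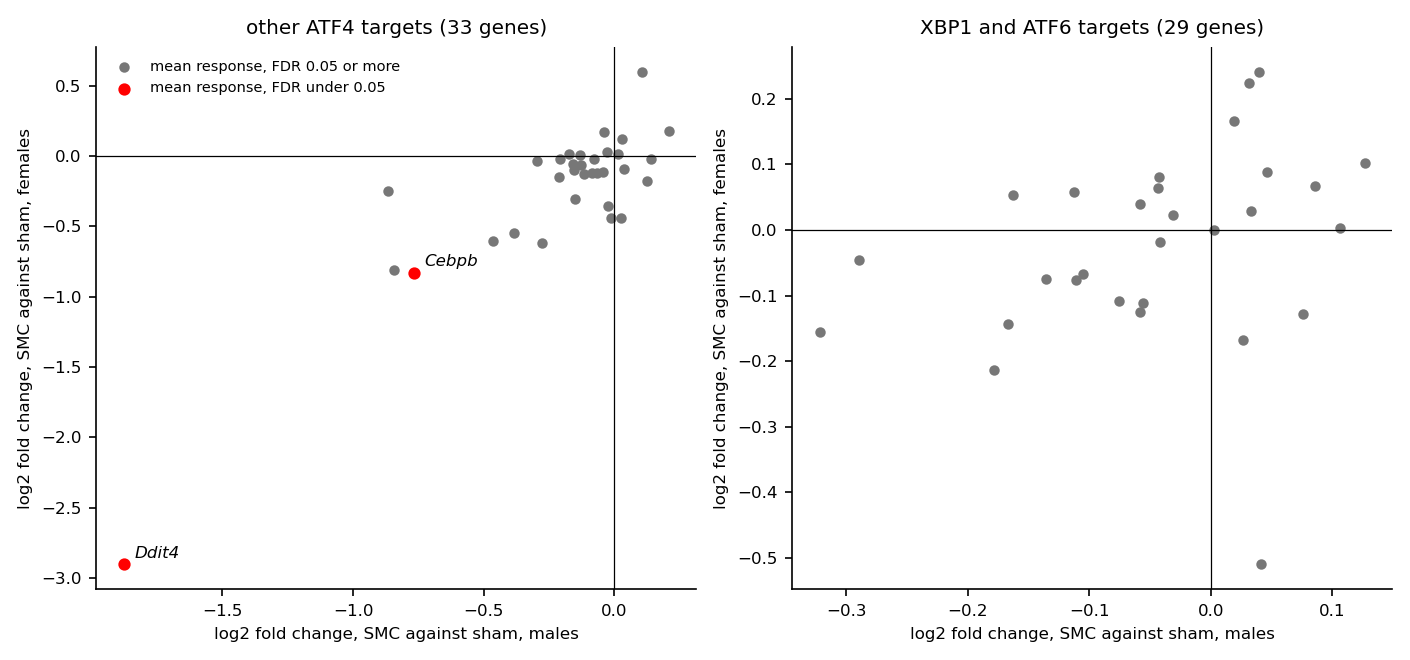
Log2 fold changes for SMC against sham in males (x axes) and females (y axes), with a point for each of 33 other ATF4 targets (left) and 29 XBP1 and ATF6 targets (right), and red points, named, passed the FDR in the mean of both sexes. *Ddit4* and *Cebpb* lie lowest on the left panel's female axis, and no gene on the right is red.

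The other pathway lists moved little with SMC. Of 29 tested XBP1 and ATF6 targets (30 listed), 17 were lower in males and 14 in females, and none passed the FDR in males, in females or in their mean. Without female sham mouse 7, *Sel1l*, an adaptor of endoplasmic reticulum degradation, was higher in the mean by 0.13 (FDR = 0.0499). *Dnajb9*, an XBP1-dependent co-chaperone of the endoplasmic reticulum, had the smallest p in males, at -0.29 (SE 0.0810, edgeR FDR = 0.179). None of 18 eIF2alpha kinases, eIF2 subunits and phosphatase subunits and none of 19 tested serine and one-carbon enzymes passed by edgeR in males, in females or in the mean. At an unadjusted p under 0.05 the mean response held 1 lower gene of the former, *Ppp1r15b* (-0.13), and 0 of the latter. Of 12 mitochondrial chaperones and proteases 1 fell in the mean of both sexes (1.33% of all genes fell), *Clpx*, the ATPase of the matrix protease ClpXP, by 0.26 on the log2 scale (SE 0.0551, edgeR FDR = 0.0166). Its levels were 55.2 ± 6.84 CPM in male sham, 46.6 ± 3.33 in male SMC, 51.7 ± 3.82 in female sham and 43.0 ± 3.71 in female SMC mice.

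Few genes of these lists passed the FDR between the sexes, and *Xbp1* stood beside XBP1 and ATF6 targets of which 0 passed by edgeR. Mitochondrial chaperones and proteases were lower in females for 11 of 12 genes in sham and 12 of 12 in SMC mice. Over all genes 49.6% and 49.7% were lower. At an unadjusted p under 0.05, 2 of the 12 were lower in each comparison (1023 and 849 of all 16408 genes), and 0 passed the FDR. In SMC mice 24 of 29 XBP1 and ATF6 targets were higher in females than in males (49.7% of all genes had a log2 fold change below 0) and 8 had an unadjusted p under 0.05 in that direction (5.33% of all genes), while 0 passed the FDR by edgeR. The largest rise among those 8 was that of *Sec61b*, a translocon subunit, at 0.64 (SE 0.269, FDR = 0.384). In sham mice 22 of 29 were higher (49.6% of all genes had a log2 fold change below 0) and 1, *Selenos*, was higher at an unadjusted p under 0.05 (9.23% of all genes), at 0.37 (FDR = 0.0634). *Eif2s3x*, the X-linked gamma subunit of eIF2, rose in females by 0.56 in sham and 0.70 in SMC mice (FDR = 1.39e-05 and 2.54e-07). *Shmt1*, the cytosolic serine hydroxymethyltransferase, was higher by 0.63 in sham and 0.50 in SMC mice (FDR = 0.00463 and 0.0290). *Vldlr*, a lipoprotein receptor and ATF4 target, was lower by log2 differences of -0.71 and -0.87 (FDR = 0.0271 and 0.00656). *Stc2*, a secreted stanniocalcin induced by ATF4, was higher in sham females by 1.68 (FDR = 0.0296). Female sham mice ran from 3.48 to 25.7 CPM and male sham mice from 1.90 to 2.87 CPM. Female sham mouse 7 stood at 25.7 CPM against at most 5.42 CPM in the other 5, and without it the difference was 0.86 (FDR = 0.0615). In SMC mice *Stc2* was 5.28 ± 2.42 CPM in females and 1.81 ± 0.439 CPM in males (SD, n = 6 each), a log2 difference of 1.54 (SE 0.417, edgeR FDR = 0.0755) that did not pass. All 6 SMC females, at 2.71 CPM or more, lay above all 6 SMC males, at 2.39 CPM or less. Such a separation, in 1 direction or the other, was shown by 2.08% of all genes.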

How the data were processed

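Gastrocnemius RNA from 24 mice was depleted of ribosomal RNA and sequenced as directional libraries. The deposited values are raw counts per Ensembl gene, which the authors made without normalization. The submitters' processing notes name cutadapt 1.16, STAR 2.7.9a, featureCounts 1.6, DESeq2 1.34.0 and the builds GRCm39 and mm39, while it is not given in the sources used here whether counting was stranded. Gene symbols, exon lengths and promoter windows came from GRCm38 annotations, so only the promoter windows carry coordinates, in that build and not that of the counts.

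Groups follow the labels. Counts were filtered with filterByExpr, scaled by TMM and fitted with edgeR 4.0.16 (glmQLFit and glmQLFTest, R 4.3.3) over all 24 libraries with 1 mean per group. Benjamini-Hochberg adjustment was over all 16408 genes, and SE is the absolute log2 fold change over the square root of F. Intervals are 95% normal intervals, and the scaling's prior count for log2 CPM was 2. The code was tested on simulated data. DESeq2 1.42.0 and limma 3.58.1 (voom with quality weights), other scalings and filters, and leaving out libraries were alternatives. Correlations used 100000 permutations within groups, 2-sided. Total counts of 23026627 to 36880413 per library limit members with few reads. The members and lists were chosen with earlier results of these data known. Of the lists, a gene was named when its FDR was under 0.05 in a contrast, and otherwise examples were those with the largest change, or the smallest p, among genes at an unadjusted p under 0.05. The comparison of SMC females with SMC males, the marker score correlations, the share of all gene pairs and the alternatives for pathway genes and lists were added after seeing the data.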

Additional observations from a re-analysis of the deposited data

Results flagged for a closer look

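In each of 40 sets of 6 values (10 members in 4 groups), the gap between an extreme mouse and its neighbour was set against the range of the group. In 2 sets it exceeded the 95% critical value of Dixon's test for 6 values, and chance alone is expected to flag about 1 in 20, or 2 sets. *Psat1* in female sham mouse 11 stood at 3.98 CPM, against 1.83 CPM in the next mouse. *Gdf15* in male SMC mouse 13 stood at 0.115 CPM, against 0.0418 CPM in the next, and this rests on 3 reads.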

How the results depend on the processing

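No paired analysis was run, because the labels give no pairing of mice between groups. The paper states that pairs of sham and SMC mice shared housing in some experiments. Whether this holds for these mice is not given in the sources used here. The call of *Xbp1* between SMC females and SMC males held under every alternative run, and the count of members called with SMC in males, in females and in the test of unequal responses was 0 under each.

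Members called moved to 2 with DESeq2 and to 0 with library totals only for sham females against sham males, to 1 with library totals only for the mean response, and to 2 with limma voom for SMC females against SMC males. Leaving out 1 library gave 1 to 2 for the sham sexes, with 2 without male sham replicate 5. Pairs of members that passed by Pearson's r fell to 0 without male sham 4 and female sham 7, and those that passed by Spearman's rho went from 6 to 5.

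Over all genes DESeq2 called 130 in males, 260 in females, 1 for unequal responses, 776 in the mean, 582 between sham and 310 between SMC sexes, where edgeR called 0, 56, 0, 388, 324 and 169. Limma voom called 93 in males, 16 in females and 546 between SMC sexes. Library totals only gave 215 in females, 1861 in the mean and 179 between sham sexes, and shifted the all-gene median by -0.13 in males and -0.14 in females. RLE factors gave 37 in females, the 12 libraries of that sex alone 14, and no filter 189 in the mean. Without male sham 4 and female sham 7 the counts were 155 in females, 511 between sham and 289 between SMC sexes. Leaving out 1 library gave 0 to 78 in males (78 without male sham replicate 5), 0 to 147 in females (0 without female SMC replicates 22 or 23, 147 without female sham replicate 9), 0 to 1 for unequal responses, 236 to 501 in the mean and 187 to 487 between sham sexes. The causes were not tested.

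No called member changed direction. Of 396 values of members under alternatives other than leaving out 1 library, 14 changed sign. With library totals only these were *Psat1* in males (-0.097) and *Atf4* (-0.13), *Asns* (-0.066) and *Phgdh* (-0.034) in females, and *Trib3* between sham sexes (0.0088). *Xbp1* in females became 0.0045 without a filter, 0.0060 with voom and 0.0068 without mice 4 and 7. Voom gave *Psat1* 0.22 in females, 0.15 for unequal responses and 0.15 in the mean, *Trib3* 0.048 and *Phgdh* -0.12 between sham sexes, and *Trib3* was 0.14 there without mice 4 and 7.

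Leaving out 1 library changed the sign of 14 results that were near 0. Their ranges were, in males, -0.20 to 0.12 for *Ddit3* and -0.030 to 0.11 for *Psat1*. In females they were -0.044 to 0.024 for *Xbp1*, -0.012 to 0.069 for *Atf4*, -0.26 to 0.39 for *Psat1*, -0.010 to 0.35 for *Asns* and -0.051 to 0.38 for *Phgdh*. For unequal responses they were -0.21 to 0.14 for *Asns* and -0.29 to 0.35 for *Psat1*, and in the mean -0.11 to 0.21 for *Psat1* and -0.12 to 0.093 for *Phgdh*. Between sham sexes they were -0.15 to 0.12 for *Trib3* and -0.028 to 0.35 for *Phgdh*, and between SMC sexes -0.0087 to 0.17 for *Atf5*.

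Among pathway genes, *Ddit4*, *Stc2*, *Vldlr* and *Shmt1* each lost their call under some alternative, *Vldlr* without male sham replicate 3 (FDR = 0.0554) and *Shmt1* between SMC sexes without male SMC replicate 13 (FDR = 0.0841), for example.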
